A study of Mus musculus with 8 samples.

Results

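Ccr2, the receptor gene that marks classical monocytes, and Ccl2, Ccl8 and Ccl12, which encode CC chemokines of the monocyte chemoattractant family, were followed in sorted myeloid cells of the mouse conjunctiva. These 4 genes were chosen by name, as receptor and ligands, and they are 4 of the 754 genes on the panel. The main pattern was a split between receptor and ligands in Ly6C-inter and Ly6C-low cells, where ligands were detected and Ccr2 was not. Ccr2 was detected well above background in MHCII+ cells and near background in Ly6C-high monocytes. Ccl2, Ccl8 and Ccl12 were detected in MHCII+ and Ly6C-inter cells, Ccl2 and Ccl12 also in Ly6C-low cells, and all 3 ligands were below the background limit in the monocytes. The monocyte samples had the lowest totals, at 2728 and 3929 counts, and no such split could be read there. In non-stressed monocytes Ccr2 was below the limit too, at 12 counts against 14 of Ccl2.

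CCR2 is a G protein-coupled receptor that guides Ly6C-high monocytes out of the bone marrow and into inflamed tissue. CCL2 (MCP-1) is its best known ligand. CCL12 (MCP-5) is a ligand of CCR2 found in mice, and CCL7 (MCP-3) is a further ligand. CCL8 (MCP-2) belongs to the same family by sequence and is known in mice as a ligand of CCR8. Macrophages, stromal cells and epithelium make these chemokines after stimulation through NF-kappaB and interferon pathways, so that the cells that secrete the signal and the cells that follow it are often different.

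All mice were female B6 mice with an intact Ccr2 gene, and the labels give their age as 10 weeks. The non-stressed (NS) mice were kept in humid air without a draft, and the stressed mice (DS5) received scopolamine in drinking water, which inhibits tear secretion, and a fan draft at low humidity until day 5. CD11b+ cells were sorted into MHCII+ cells and, among MHCII-CD64+ cells, by their Ly6C. These 3 populations are called Ly6C-high (the monocytes), Ly6C-inter and Ly6C-low here. RNA was pooled over many mice, and each of the 8 samples is the only one of its kind, so no difference has a replicate check and no p-values are given.

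Expression was measured on a NanoString nCounter panel, which counts fluorescent barcodes bound to each transcript without amplification. The total over the genes was 39677 counts for the NS and 30335 for the DS5 MHCII+ sample, and lay between 2728 and 14201 in the 6 MHCII- samples. The negative control limit (the mean + 2 SD of 8 probes without a target) lay between 11.2 and 23.0 counts. No value was under 1, so a count of 1 may stand for less. Levels are given as raw counts and as counts per 10000 gene counts of the same sample, and the ratios compare the latter on the log2 scale. The 95% intervals cover counting error only, not the variation between mice or pools. In such pooled RNA, fewer cells of a type and less RNA per cell cannot be told apart.

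The labels were checked against marker genes. H2-Aa, an MHC class II gene, had 3419 and 2635 counts in the MHCII+ samples and 12 to 22 in the others. Fcgr1, the gene of CD64, was below the limit in all 6 samples sorted as CD64+. Of 11 measured tissue macrophage markers, such as C1qa and Mrc1, 7 to 9 were above the limit in the 4 Ly6C-inter and Ly6C-low samples, 9 and 11 in the DS5 and NS MHCII+ samples, and 0 and 1 in NS and DS5 Ly6C-high cells. Of 6 measured classical monocyte markers, 3 and 4 were above the limit in NS and DS5 Ly6C-high cells. The Ly6C-inter and Ly6C-low samples had 2 or 3 above it, and the NS and DS5 MHCII+ samples 4 and 3. Ly6c1 was below the limit in NS Ly6C-high, Ly6C-inter and Ly6C-low cells, at 8, 8 and 7 counts. In DS5 these populations had 16, 583 and 14 counts, so Ly6c1 did not rank with the Ly6C gates there. The DS5 Ly6C-inter sample stood apart. It had 1436 counts of Emp1, 891 of S100a11, 696 of S100a10 and 583 of Ly6c1, where the NS sample of the same population had 51, 62, 53 and 8. The neutrophil marker S100a9 had 55 counts in it, against 16 in its NS counterpart, while Ly6g was at 1 in both. In NS Ly6C-low cells the eosinophil genes Ccr3 and Siglecf were above the limit at 25 and 20 counts. The sort had used antibodies to Ly6G, NK1.1, CD3e and CD45R/B220 to remove granulocytes and lymphocytes, and the MHCII- cells were gated on CD64. The part of such cells in the results was not tested.

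In the RefSeq annotation of GRCm38.p6 the ligand genes lie next to each other on chromosome 11, in the order Ccl2, Ccl7, Ccl11, Ccl12 and Ccl8, and Ccr2 lies on chromosome 9. RefSeq's promoter table held an entry for Ccr2, Ccl8 and Ccl12. The 250 bases before the start site are shown for these members, and Ccl2 had no entry. The capitals mark the TATA box TATAAAA and the PU.1 core GAGGAA, searched on both strands, and the matches do not overlap. All are on the + strand, 5′ to 3′, from chr11:82114935-82115184, chr11:82101595-82101844 and chr9:124101933-124102182.
Ccl8: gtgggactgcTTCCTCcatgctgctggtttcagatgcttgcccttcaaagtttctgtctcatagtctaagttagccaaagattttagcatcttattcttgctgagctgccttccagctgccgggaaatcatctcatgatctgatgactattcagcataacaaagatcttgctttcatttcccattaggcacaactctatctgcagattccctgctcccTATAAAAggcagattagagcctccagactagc
Ccl12: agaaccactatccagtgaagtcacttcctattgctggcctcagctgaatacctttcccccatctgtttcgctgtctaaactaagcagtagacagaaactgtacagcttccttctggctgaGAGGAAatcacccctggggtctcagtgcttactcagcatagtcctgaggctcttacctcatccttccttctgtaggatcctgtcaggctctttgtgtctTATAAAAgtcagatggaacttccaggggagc
Ccr2: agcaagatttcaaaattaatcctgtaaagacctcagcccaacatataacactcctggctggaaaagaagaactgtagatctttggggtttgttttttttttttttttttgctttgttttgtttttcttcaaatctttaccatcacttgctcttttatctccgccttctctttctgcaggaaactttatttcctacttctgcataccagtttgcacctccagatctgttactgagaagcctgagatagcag

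Ccl8 and Ccl12 carried TATAAAA at almost the same distance, with the motif's first base at -32 and -31 from the start site, and Ccr2 carried none in this window. The TATA box was found in 4.98% of 32851 promoters of this length and the PU.1 core in 23.3%. The AP-1 motif TGANTCA (6.75% of promoters), the C/EBP motif TTGCNNAA (9.56%), the interferon-stimulated response element (2.98%) and the NF-kappaB motif (3.90%) were not matched in the 3 windows. The motifs were picked after the sequences had been seen, and the matches describe the letters only.

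Ccr2, the receptor, was the member most restricted to some of the populations. MHCII+ cells had 202 counts (NS) and 190 counts (DS5), Ly6C-high cells 12 (NS) and 15 (DS5), Ly6C-inter cells 1 (NS) and 7 (DS5), and both Ly6C-low samples 1. It was above the negative control limit in both MHCII+ samples and, by about 1 count, in DS5 Ly6C-high cells, where the limit was 14.0. In NS Ly6C-high cells it was below the limit of 15.1. The Ly6C-high samples held few counts in all, and per 10000 gene counts the levels of Ccr2 were 62.6 in DS5 MHCII+ cells, 50.9 in NS MHCII+ cells, 44.0 in NS Ly6C-high cells and 38.2 in DS5 Ly6C-high cells. The next level was 4.93 in DS5 Ly6C-inter cells, and the other 3 samples were at 1.68 to 2.47, each from a single count. The step from DS5 Ly6C-high to DS5 Ly6C-inter cells was 2.95 on the log2 scale (1.57 to 4.49). It compares 15 counts with 7, the latter below the limit of 23.0, in totals of 3929 and 14201, so its size depends on the scaling. Among the neighbours in this order only this step and that between the MHCII+ samples had an interval above 0.

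Ccl2, the classical ligand, had the opposite distribution among the MHCII- populations. MHCII+ cells had 562 counts (NS) and 369 counts (DS5), Ly6C-inter cells 182 (NS) and 152 (DS5), Ly6C-low cells 57 (NS) and 58 (DS5), and Ly6C-high cells 14 (NS) and 11 (DS5). It was above the limit in 6 samples, all but the Ly6C-high samples. It was the highest gene of NS Ly6C-inter cells. Per 10000 gene counts Ccl2 was at 306 in NS Ly6C-inter cells, between 98.3 and 143 in the Ly6C-low, MHCII+ and DS5 Ly6C-inter samples, and at 51.3 and 28.0 in NS and DS5 Ly6C-high cells. NS Ly6C-inter cells were above the next sample by 1.10 (0.66 to 1.55), and NS Ly6C-low cells were above NS Ly6C-high cells by 0.94 (0.08 to 1.90). In between, the difference between NS and DS5 MHCII+ cells had an interval above 0, and the other steps did not exceed counting error.

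Ccl8 and Ccl12 followed Ccl2. For Ccl8, MHCII+ cells had 106 counts (NS) and 43 counts (DS5), Ly6C-inter cells 34 (NS) and 24 (DS5), Ly6C-low cells 7 (NS) and 8 (DS5), and Ly6C-high cells 3 (NS) and 2 (DS5). Only the MHCII+ and Ly6C-inter samples were above the limit, DS5 Ly6C-inter cells by about 1 count. For Ccl12, MHCII+ cells had 116 counts (NS) and 53 counts (DS5), Ly6C-inter cells 39 (NS) and 30 (DS5), Ly6C-low cells 17 (NS) and 18 (DS5), and Ly6C-high cells 1 (NS) and 4 (DS5). All but the Ly6C-high samples were above the limit, as for Ccl2. Per 10000 gene counts NS Ly6C-inter cells had the highest level of both genes, 57.2 for Ccl8 and 65.6 for Ccl12. For Ccl8 the next sample, NS MHCII+ cells, was lower by 1.10 (0.50 to 1.67), and the steps further down did not exceed counting error. For Ccl12 no step between neighbours did.

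**Figure D1:**
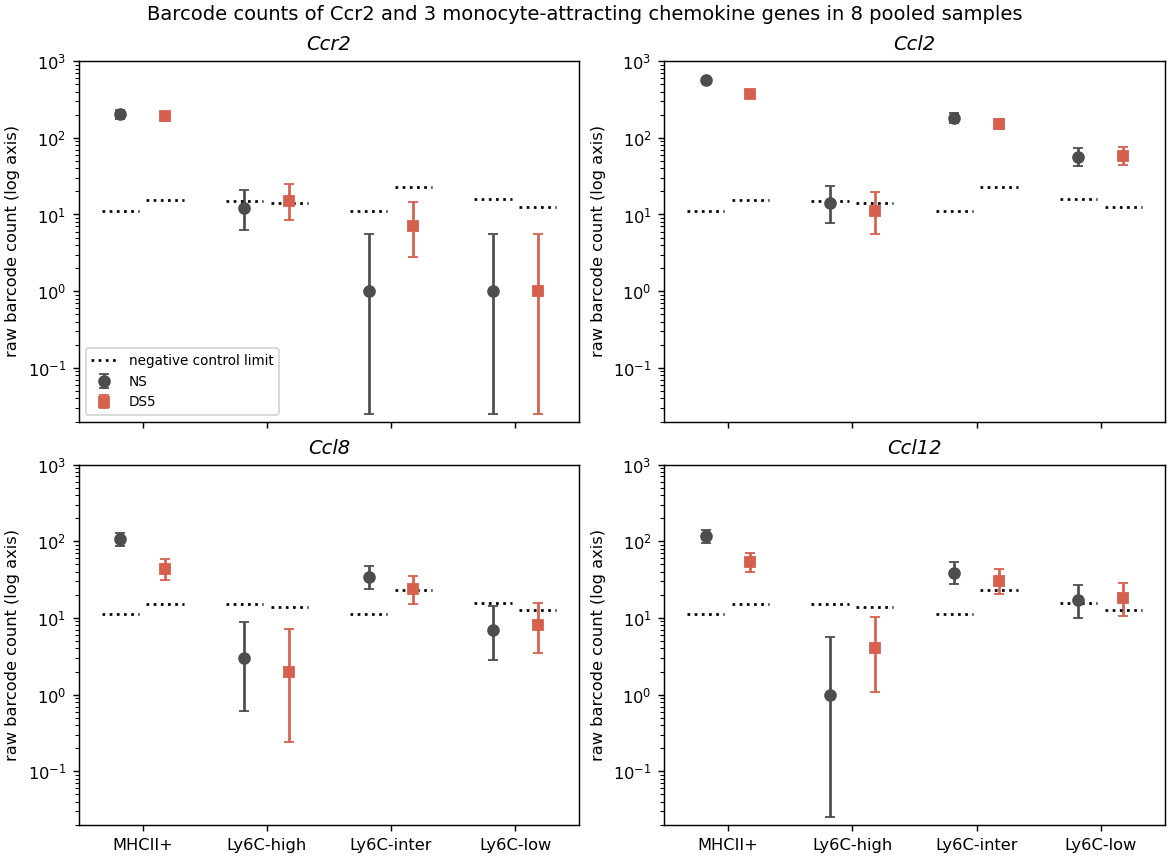
Raw barcode counts on a log axis for Ccr2, Ccl2, Ccl8 and Ccl12 in the 4 sorted populations, NS (circles) and DS5 (squares), with exact 95% Poisson intervals as bars and each sample's negative control limit as a dotted line. Ccr2 stands clear of the limit in MHCII+ cells only, while Ccl2 and Ccl12 stand above it in all populations but Ly6C-high cells.

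MHCII+ cells were compared with each MHCII- population to ask where receptor and ligands are expressed. At a log2 ratio of at least 2, Ccr2 was higher in MHCII+ than in Ly6C-inter and Ly6C-low cells in both conditions. The log2 ratio over Ly6C-inter cells was 4.92 (2.43 to 10.23) in NS and 3.67 (2.60 to 5.00) in DS5. Over Ly6C-low cells it was 4.88 (2.39 to 10.19) in NS and 4.67 (2.17 to 9.98) in DS5. Of all genes, 1.72% and 3.45% were that much higher over Ly6C-inter cells in NS and DS5, and 1.86% and 2.39% over Ly6C-low cells. In all 4 Ly6C-inter and Ly6C-low samples Ccr2 was below the negative control limit, at 1 to 7 counts. With counts raised to the limit the ratios were 2.23 and 2.52 over Ly6C-inter and 2.06 and 2.11 over Ly6C-low cells in NS and DS5, the lowest under the alternatives tried and just past the threshold.

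Between MHCII+ and Ly6C-high cells, Ccr2 did not differ beyond counting error after scaling to equal totals, with log2 ratios of 0.21 (-0.63 to 1.19) in NS and 0.71 (-0.04 to 1.58) in DS5. These ratios depended on the scaling, and without scaling they were 4.07 and 3.66. Of the ligands, Ccl2 was higher in MHCII+ cells in both conditions, with a log2 ratio of 1.46 (0.71 to 2.35) in NS and 2.12 (1.26 to 3.13) in DS5. Ccl12 had 2.996 (0.49 to 8.31) in NS, resting on a single count in Ly6C-high cells, and 0.78 (-0.66 to 2.71) in DS5. Ccl8 had 1.28 (-0.31 to 3.58) and 1.48 (-0.46 to 4.57), with intervals that included 0. In all, 1 member passed the threshold of 2 in NS, Ccl12, against 1.86% of all genes, and 1 in DS5, Ccl2, against 2.25%. The ratio of Ccl12 in NS was 1.93 with the negative control mean subtracted and 1.04 with counts raised to the limit.

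For the ligands against Ly6C-inter and Ly6C-low cells, the direction depended on the scaling. In NS, Ccl2, Ccl8 and Ccl12 were lower in MHCII+ than in Ly6C-inter cells at equal totals, with log2 ratios of -1.11 (-1.35 to -0.86), -1.10 (-1.67 to -0.50) and -1.17 (-1.70 to -0.60). Of all 754 genes, 167 had an interval below 0 in this comparison. The median log2 ratio was -1.32 over all genes and -0.46 over the 296 genes above the limit in either sample. Of all genes, 57.7%, 57.8% and 52.3% lay below Ccl2, Ccl8 and Ccl12, and of the 296 genes 20.9%, 21.3% and 19.6%. Without scaling the ratios of the 3 ligands were 1.63, 1.64 and 1.57. In DS5 the intervals of the 3 ligands included 0 at equal totals. Against Ly6C-low cells, Ccl2 (0.53, 0.13 to 0.95) and Ccl8 (1.15, 0.05 to 2.50) were higher in NS MHCII+ cells, and Ccl12 was lower in DS5 MHCII+ cells (-1.34, -2.14 to -0.49). The last ratio was 1.56 without scaling. Against Ly6C-low cells, 27 of all 754 genes had an interval above 0 in NS and 205 one below 0 in DS5.

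**Figure D2:**
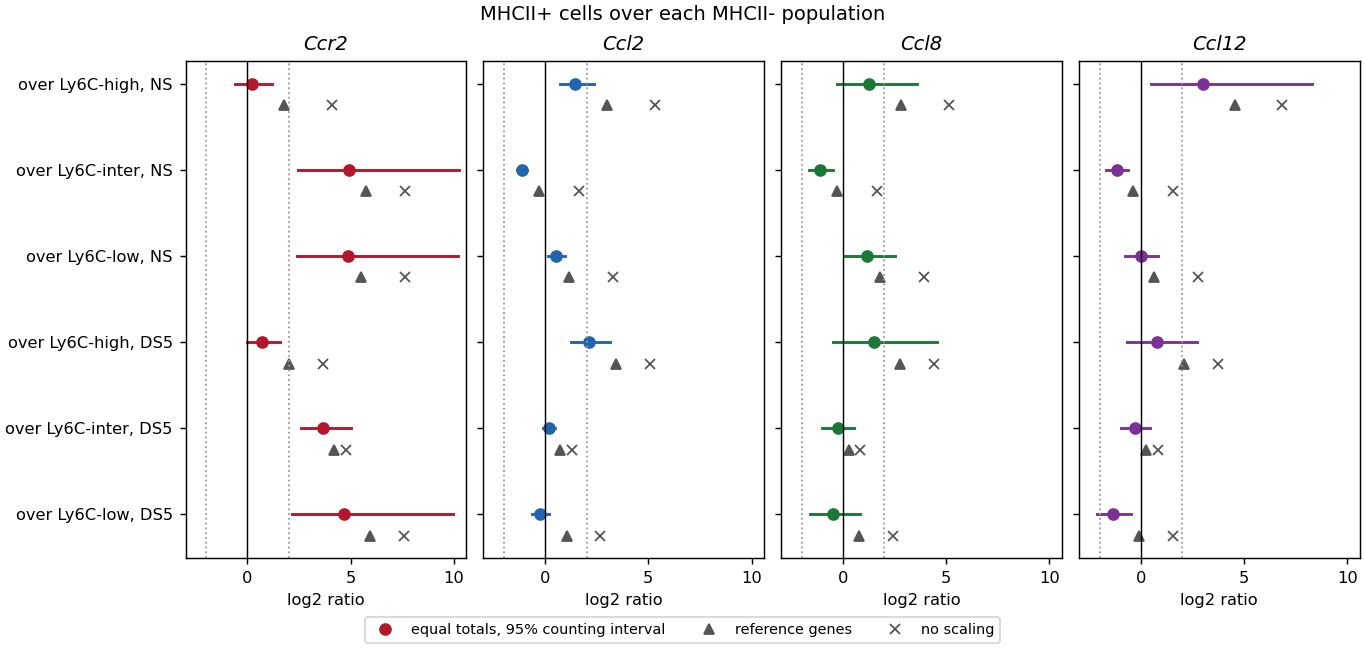
Log2 ratio of each gene in MHCII+ cells over each MHCII- population in NS and DS5 at equal totals (coloured points, 95% counting intervals as lines), scaled to reference genes (triangles) and without scaling (crosses), with dotted lines at the threshold of 2 in either direction. Ccr2 lies right of the threshold against Ly6C-inter and Ly6C-low cells under all 3 scalings, while the ligand points fall on both sides of 0.

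A ratio of 2 genes counted in the same sample does not depend on the scaling, and it was used to compare the balance of ligand and receptor between samples. In NS MHCII+ cells 2.78 Ccl2 barcodes were counted per Ccr2 barcode, and in NS Ly6C-inter cells 182, from a single Ccr2 count against a limit of 11.2. The log2 difference was -6.03 (-11.35 to -3.51), and its size rests on that count. In DS5 the ratios were 1.94 and 21.7, the latter from 7 Ccr2 counts that were also below the limit, and the log2 difference was -3.48 (-4.85 to -2.36). In Ly6C-low cells 57 and 58 Ccl2 barcodes were counted per Ccr2 barcode in NS and DS5, from a single Ccr2 count in each. In Ly6C-high cells the ratios were the lowest, 1.17 in NS and 0.733 in DS5. They rest on Ccl2 counts of 14 and 11, below the limits of 15.1 and 14.0. The Ccr2 counts were 12, also below the limit, and 15, about 1 above it. At this level the ratios do not show a balance of ligand and receptor. The DS5 ratio was below that of DS5 MHCII+ cells (log2 difference 1.41, 0.15 to 2.70), and in NS the interval of this difference was -0.02 to 2.50. Ccl8 and Ccl12 relative to Ccr2 were also lower in MHCII+ than in Ly6C-inter and Ly6C-low cells, with intervals below 0 in both conditions. These too are ratios over Ccr2 counts below the limit, and in Ly6C-low cells Ccl8 itself was below it, at 7 and 8 counts.

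The ligands were also compared with each other. Across the 3 MHCII+ and Ly6C comparisons in NS, no interval of Ccl8 relative to Ccl2, or of Ccl12 relative to Ccl2, excluded 0. In DS5, Ccl12 relative to Ccl2 was lower in MHCII+ than in Ly6C-low cells by a log2 difference of -1.11 (-2.02 to -0.15), and the other intervals included 0.

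**Figure D3:**
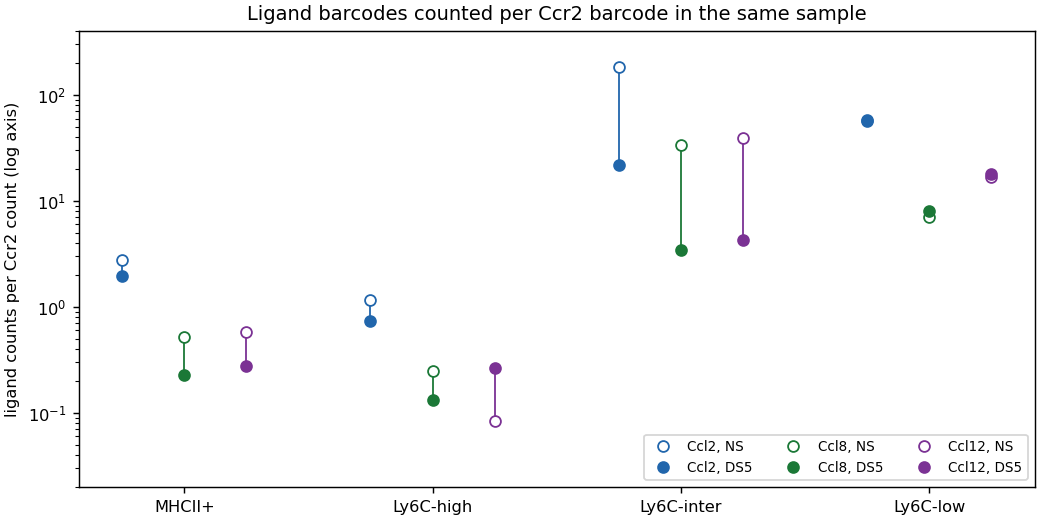
Ligand barcodes counted per Ccr2 barcode in the same sample, on a log axis, for Ccl2, Ccl8 and Ccl12 in NS (open circles) and DS5 (filled circles), with a line joining the pair. The Ly6C-inter and Ly6C-low samples sit above the MHCII+ and Ly6C-high samples, and the ratios of NS Ly6C-inter and both Ly6C-low samples rest on a single Ccr2 count.

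The effect of desiccating stress was best measured in MHCII+ cells, the samples with the most counts. After DS5 the ligands made up a smaller share of the counts in these cells, and Ccr2 did not. Ccl8 went from 106 to 43 counts, a log2 ratio of -0.91 (-1.46 to -0.39). Ccl12 went from 116 to 53 counts, -0.74 (-1.24 to -0.26). Ccl2 went from 562 to 369 counts, -0.22 (-0.41 to -0.03). Ccr2 had 202 and 190 counts, 0.30 (0.01 to 0.59), and its direction turned without scaling, at -0.088. None of the 4 genes passed the threshold of 1.5 between NS and DS5.

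The intervals of 3 ligands were below 0, against 2.39% of all genes and 6.19% of the 291 genes above the limit in either sample. That of Ccr2 was above 0, against 2.39% and 4.81%. Among those 291 genes, 6.53% had a log2 ratio below that of Ccl8 and 8.59% one below that of Ccl12, so both were near the lower end. Ccl2 was closer to the middle, with 34.0% below it, and Ccr2 had 75.6% below it. The log2 ratio lay between -1.30 and -0.91 for Ccl8, between -1.13 and -0.74 for Ccl12 and between -0.61 and -0.18 for Ccl2 under all settings tried.

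A lower level of the ligands relative to Ccr2 in DS5 MHCII+ cells was also seen without scaling, in the counts of the same sample. Relative to Ccr2, Ccl8 was lower in DS5 than in NS by a log2 difference of -1.21 (-1.84 to -0.60), Ccl12 by -1.04 (-1.62 to -0.47) and Ccl2 by -0.52 (-0.87 to -0.17). Most detected genes were lower relative to Ccr2 too, since 75.6% of the 291 had a log2 ratio below that of Ccr2. Ccl2, with 34.0% of them below it, was not set apart by this. Relative to Ccl2, Ccl8 was lower by -0.69 (-1.28 to -0.13), and Ccl12 by -0.52 (-1.06 to -0.0011), an interval that ended close to 0. Ccl12 and Ccl8 did not differ from each other beyond counting error (0.17, -0.56 to 0.91). The summed level of the tissue macrophage markers moved alongside, from 415 to 351 per 10000 gene counts in MHCII+ cells. Its part in the result was not tested.

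**Figure D4:**
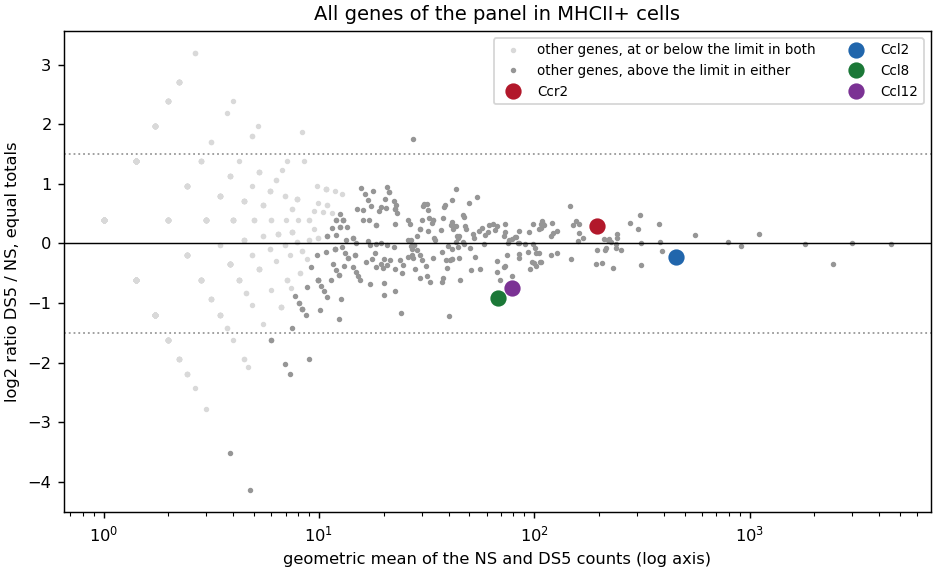
Log2 ratio of DS5 over NS in MHCII+ cells at equal totals against the geometric mean of the 2 counts (log axis) for all 754 genes, with the threshold of 1.5 as dotted lines. Ccl8 and Ccl12 lie near the lower edge of the genes with like counts, Ccl2 just below 0 and Ccr2 just above it.

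In Ly6C-inter cells the same 3 ligands were lower in DS5 at equal totals. The log2 ratio was -1.52 (-1.84 to -1.20) for Ccl2, -1.76 (-2.58 to -0.96) for Ccl8 and -1.63 (-2.37 to -0.91) for Ccl12. All 3 passed the threshold of 1.5, against 13.9% of all genes. Their intervals were below 0, as were those of 11.8% of all genes and of 49.3% of the 136 genes above the limit in either sample, so the ligands were not set apart from the other detected genes by this. The raw counts differed little, and without scaling the ratios were -0.26, -0.50 and -0.38. The DS5 sample is the one that stood apart, with its high counts of Emp1 and S100a genes in the total, and with the leading genes of each sample left out of the total the ratios were -1.23, -1.47 and -1.34. Ccr2 passed the threshold upwards at 1.55 (-1.41 to 7.05), against 7.29% of all genes, from 7 counts and 1 count that were both below the limit. With the negative control mean subtracted its ratio turned to -1.26.

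In Ly6C-low and Ly6C-high cells no member differed between NS and DS5 beyond counting error. In Ly6C-low cells the log2 ratios were 0.54 (-0.01 to 1.09) for Ccl2, 0.71 (-0.95 to 2.40) for Ccl8 and 0.60 (-0.44 to 1.64) for Ccl12. The median of all genes was 0.52, the value that Ccr2 had with 1 count in both samples. Over the 102 genes above the limit in either sample the median was -0.44, with 29 higher and 73 lower. Of these, 85.3% had a log2 ratio below that of Ccl2 and 86.3% one below that of Ccl12. For Ccl8, below the limit in both samples, it was 91.2%. The raw counts of each ligand were within 1 of each other in NS and DS5. In Ly6C-high cells Ccr2 had a ratio of -0.20 (-1.40 to 1.02) and Ccl2 one of -0.87 (-2.16 to 0.37). Ccl8 and Ccl12 had at most 4 counts there, and at this depth a difference was not detectable.

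**Figure D5:**
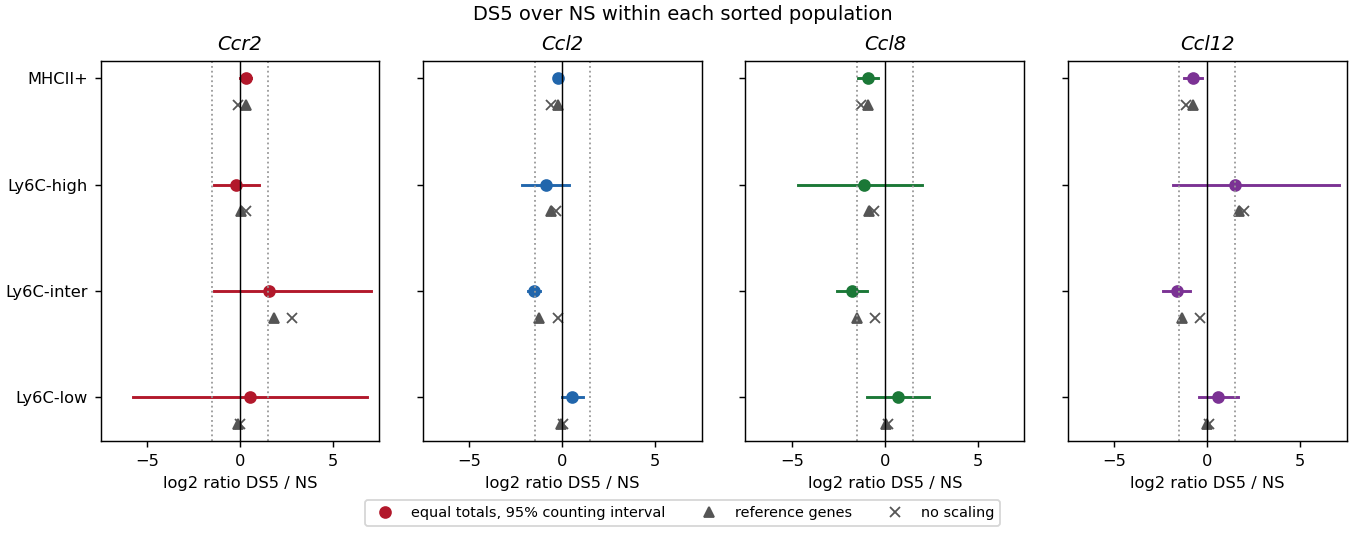
Log2 ratio of DS5 over NS for each gene in each population at equal totals (coloured points, 95% counting intervals as lines), scaled to reference genes (triangles) and without scaling (crosses), with dotted lines at the threshold of 1.5 in either direction. The intervals of Ccl2, Ccl8 and Ccl12 lie below 0 in MHCII+ and Ly6C-inter cells and include 0 in the other populations.

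Ccl7, the neighbouring ligand of CCR2 that is no member, had a like distribution. MHCII+ cells had 124 counts (NS) and 76 counts (DS5), Ly6C-inter cells 56 (NS) and 22 (DS5), Ly6C-low cells 14 (NS) and 16 (DS5), and Ly6C-high cells 2 (NS) and 6 (DS5). Its DS5 over NS ratio was -0.32 (-0.75 to 0.10) in MHCII+ cells and -2.60 (-3.39 to -1.87) in Ly6C-inter cells. Of all 18 other CC chemokines measured, 8 were above the limit in at least 1 sample. These were Ccl3 and Ccl4, inflammatory chemokines, Ccl6 and Ccl9, Ccl7, Ccl17 and Ccl22, ligands of CCR4, and Ccl24, an eotaxin. In MHCII+ cells 4 of the 8 were higher and 4 lower in DS5, with a median log2 ratio of -0.03, against -0.01 over all 291 detected genes. By raw counts 1 of the 8 was higher and 7 were lower, as were 37 and 243 of the 291 detected genes. The interval was below 0 for Ccl24 alone (-1.22, -1.97 to -0.52) and above 0 for none of the 18.

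Few other CC chemokine receptors were above the limit. Ccr1, a receptor of CCL3 and CCL5, had 31 counts in MHCII+ cells of NS mice, 28 in those of DS5 mice and 12 in NS Ly6C-inter cells, all above the limit. Ccr7, the receptor that guides dendritic cells to lymph nodes, was above it in NS MHCII+ cells alone, at 15 counts. Ccr3 was above it in NS Ly6C-low cells alone.

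The genes with the most similar pattern differed between receptor and ligands. Likeness was Pearson's r over the 8 samples of log2(counts per 10000 + 1), among 178 genes with a summed count of at least 100, and it is given as a description. The samples share an assay and differ in depth, so low counts in the shallow samples enter every r. The 5 genes most like Ccr2 were Il6 (0.90), Mpeg1 (0.87), Lpl (0.87), H2-Eb1 (0.84) and Fn1 (0.83). For Ccl2 they were C1qa (0.99), Apoe (0.98), Mrc1 (0.96), Ccl8 (0.95) and C1qc (0.93). For Ccl8 they were Ccl2 (0.95), C1qa (0.92), Apoe (0.91), Mrc1 (0.85) and C5ar1 (0.83). For Ccl12 they were Cd163 (0.96), Cd36 (0.96), Ctsd (0.96), C1qb (0.93) and Ccl7 (0.93). C1q, Mrc1 and Cd163 are tissue macrophage markers, and Ccr2 had an r of -0.44 to -0.68 with the 3 ligands. Without the DS5 Ly6C-inter sample, 3 of the 5 genes most like Ccr2, all 5 for Ccl2 and 4 of 5 each for Ccl8 and Ccl12 stayed.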

How the data were processed

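Each of the 8 samples was RNA pooled from sorted conjunctival cells. The authors hybridized it to the NanoString Mouse Myeloid Innate Immunity V2 panel and deposited raw barcode counts for 754 genes, 8 negative and 6 positive control probes, with no normalization; the normalization the authors used in nSolver is not given in the sources used here. Groups came from the sample titles.

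Counts were scaled to equal totals over the genes. Log2 ratios carry exact 95% Clopper-Pearson intervals, within-sample ratios exact conditional intervals and counts exact Poisson intervals. The thresholds of 1.5 (NS against DS5) and 2 (between populations) follow the study. The intervals were checked on simulated counts that varied by counting error only. Coverage was required only for genes with higher expected counts in both samples. The check therefore does not reach the Ccr2 counts below the limit in Ly6C-inter and Ly6C-low cells. Scaling to 20 measured reference genes was an alternative, since only 2 were above the limit in every sample. Values under 1 after scaling were not raised to 1, so that a ratio lies within its interval.

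The 4 members, the lists and the rule for genes of like pattern were chosen with earlier results of these data known. Named genes were the 4 members, the 5 genes most like each, and detected genes of the CC chemokine, receptor and marker lists; Emp1, S100a10 and S100a11 were named after their values were seen. Interval counts over all genes and ratios between ligands were also added then. Of the marker lists, T cell, B cell, epithelial and endothelial lists had 1 or 2 measured genes, and these and the mast cell and fibroblast lists had none above the limit. One gene of the receptor list is not reported here. The proteins are not printed, as no table of them was used here. Intervals were computed with scipy 1.17.1 in Python 3.11.15, tables were handled with pandas 2.3.3 (on numpy 2.4.6), and plots were drawn with matplotlib 3.10.9.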

Additional observations from a re-analysis of the deposited data

How the results depend on the processing

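The ratios between MHCII+ and MHCII- cells were limited by depth and scaling. Of 40 ratios of the 4 genes in 10 comparisons, 22 kept their sign under all settings tried and 18 did not. No paired analysis was possible because each group had 1 sample. The cause of the shifts with scaling was not tested.

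Without scaling, the DS5 over NS ratios were -0.26 (Ccl2), -0.50 (Ccl8) and -0.38 (Ccl12) in Ly6C-inter cells and -0.61 (Ccl2) and -0.088 (Ccr2) in MHCII+ cells, and Ccl2 in DS5 MHCII+ over Ly6C-high cells was at 5.07. With positive controls these were -0.57, -0.81, -0.69, -0.60, -0.084 and 5.36, and Ccr2 in DS5 MHCII+ over Ly6C-inter cells was at 5.22. With reference genes Ccl2 in DS5 MHCII+ over Ly6C-high cells was at 3.41. With the negative control mean subtracted, Ccr2 was at 6.13 in DS5 MHCII+ over Ly6C-inter cells and turned to -1.26 in DS5 over NS Ly6C-inter cells. With counts raised to the limit, the latter turned to -0.13, and Ccr2 in MHCII+ over Ly6C-inter cells was at 2.23 in NS and 2.52 in DS5, and over Ly6C-low cells at 2.06 and 2.11.

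The numbers of all genes past the threshold were 55 higher and 105 lower in DS5 over NS Ly6C-inter cells, and 14, 13 and 14 higher in NS and 17, 26 and 18 higher in DS5 MHCII+ over Ly6C-high, Ly6C-inter and Ly6C-low cells. In Ly6C-inter cells they were 267 and 13 without scaling, 195 and 22 with positive controls and 14 and 10 with counts raised to the limit, and 38 were lower among genes with a count of at least 10. In MHCII+ cells over the 3 populations they were 354, 268 and 287 (NS) and 266, 99 and 248 (DS5) without scaling, 369, 283 and 287 and 284, 151 and 265 with positive controls, and 84, 34 and 28 and 58, 50 and 55 with reference genes. With the negative control mean subtracted they were 26, 25 and 40 in NS and 26 and 83 over Ly6C-high and Ly6C-inter cells in DS5. With counts raised to the limit they were 25 over Ly6C-high cells in NS and 17 over Ly6C-inter cells in DS5. With the leading genes left out of the total, an alternative chosen after seeing the data, they were 42, 28 and 28 in NS and 38 and 32 over Ly6C-high and Ly6C-low cells in DS5.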

Other observations

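Genes known to act in the induction of Ccl2 were counted in MHCII+ cells. Of 14 measured genes of this list, 10 exceeded the negative control limit in the NS or the DS5 sample, and 7 of the 10 were higher and 3 lower in DS5 than in NS at equal totals, with a median log2 ratio of 0.28 against -0.01 over the 291 detected genes. The tally depended on the scaling, and by raw counts 4 of the 10 were higher and 6 lower, as were 37 and 243 of the 291 detected genes. Il6, an inflammatory cytokine, had 47 counts in NS and 62 in DS5 (0.79, 0.22 to 1.37), and Il1b, the gene of interleukin-1 beta, had 319 and 290 (0.25, 0.02 to 0.48), a direction that turns without scaling. Tnfrsf1a, a receptor of TNF, had 98 and 49 counts (-0.61, -1.14 to -0.10). Tnf itself had 28 and 33 counts (0.62, -0.15 to 1.405).

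Of 14 measured genes of monocyte egress and adhesion, 9 were above the limit in either MHCII+ sample, with 6 higher and 3 lower in DS5 and a median log2 ratio of 0.07. Over the 291 detected genes 143 were higher and 148 lower, with a median of -0.01. By raw counts 1 of the 9 was higher and 8 were lower, as were 37 and 243 of the 291 detected genes. Cxcr4, a receptor that retains cells in the bone marrow, was the only gene of the list whose interval excluded 0, at 36 counts in NS and 52 in DS5 (0.92, 0.28 to 1.57). None of the 9 passed the threshold of 1.5.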
